A study of Mus musculus with 6 samples.

Results

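The genes described here belong to families of the machinery that docks and fuses transmitter vesicles, although some members act in other steps, compartments or cells. They were measured in whole brains of mice 48 hours after a single peripheral injection of lipopolysaccharide (LPS). Members were taken by symbol from the platform annotation. They are the synaptotagmins, synapsins, syntaxins, VAMPs and complexins, the genes Snap23, Snap25, Snap29, Snap47 and Snap91, the SV2 proteins, the syntaxin binding proteins and the Rab3 GTPases. The rule found 61 of the 19938 genes that a transcript cluster, a set of probes for 1 locus, names alone on the array. The cluster with the highest mean stood for each gene, and only Stxbp4 had more than 1. A further 2 clusters name a matching gene together with another gene and are not used here. LPS of Escherichia coli serotype 055:B5 was injected i.p. into 3 male C57BL/6 mice at 4 mg/kg, and 3 male C57BL/6 mice received PBS as vehicle. All mice were 7 to 8 weeks old, were kept free of specific pathogens and were perfused with PBS before the brain was taken. Each mouse gave 1 whole brain, so that no brain region can be told from another.

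Exocytosis at a synapse rests on SNARE proteins. A VAMP on the vesicle zips together with a syntaxin and a SNAP protein on the plasma membrane, and the bundle pulls the membranes into fusion. Synaptotagmins on the vesicle bind calcium and trigger the final step, complexins hold and release the assembled bundle, and Munc18 proteins of the Stxbp family guide syntaxin into it. Synapsins tether vesicles in reserve, SV2 proteins are vesicle glycoproteins, and Rab3 GTPases bring vesicles to the release site. Neurons use Snap25, Stx1a and Vamp2 for fast release, whereas Snap23, Vamp3, Vamp8, Stx4 and Stx11 serve secretion in many other cells, immune cells among them.

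Values are log2 expression after robust multichip average (RMA) normalization, and differences are LPS minus PBS on that scale. The first principal component set LPS replicates 1 and 2 against the remaining 4 arrays, and the medians of these arrays were 7.09 and 7.11 where the others had 6.95 to 6.98. The 12 neuronal markers, such as Rbfox3 and Tubb3, had a mean level of 11.13 to 11.16 in the PBS arrays and 11.06 to 11.14 in the LPS arrays. Odorant and vomeronasal receptor genes, mostly silent in brain and used as a floor, had array medians of 5.67 to 5.81. None of the neuronal markers passed the test, and their median log2 fold change was -0.026. At an unadjusted p below 0.05, 1 was lower. This was Uchl1, at -0.395 (adjusted p = 0.123 from limma), with all LPS arrays below all PBS arrays. In whole tissue, fewer cells of a type and less RNA per cell cannot be told apart. Of the 61 members, Cplx4 and Stx19 lay below that floor in the PBS mice, so that a difference in them could not be read at this signal.

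No synaptic vesicle or SNARE gene passed the test. Of 61 members, 0 had an adjusted p under 0.05 by limma, a threshold that 0.714% of all 35556 clusters passed. Their adjusted p values ran from 0.133 to 0.988, and the methods' t-test gave 0.176 as its lowest. At an unadjusted p under 0.05, 6 members were higher and 3 were lower by limma, or 9.84% and 4.92%, against 7.69% and 6.58% of all clusters. The methods' t-test at the same level gave 7 higher and 6 lower, or 11.5% and 9.84%, against 5.91% and 5.95% of all clusters. All 3 LPS arrays lay above all 3 PBS arrays for 8 members and below them for 8, or 13.1% each way, against 9.73% and 10.3% of all clusters. The 6 on the higher side by limma were Snap23, Vamp3, Syn3, Stx2, Stx16 and Sv2c, and the 3 on the lower side were Rab3b, Rab3d and Syt3.

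The differences were also small. The median log2 fold change of the members was -0.038, against -0.00093 over all clusters, and 24 of 61 members, or 39.3%, were above 0, against 49.8% of all clusters. Median centring of the arrays lowered every estimate by the same amount, and 10 of 61 were then above 0. Estimates that turned below 0 there were those of Snap91, Stx3, Stx4a, Stx19, Stxbp3, Stxbp4, Stxbp6, Sv2b, Syt1, Syt7, Syt8, Syt9, Vamp1 and Vamp5, each of them close to 0 before. The members ran from -0.67 for Rab3b to 0.35 for Snap23. For 56 of 61 members the 95% interval, which is not adjusted for the number of genes, lay within a 1.5-fold change either way, as it did for 77.8% of all clusters. The 5 exceptions were Rab3a, Rab3b, Stx8, Stxbp2 and Syt16. An interval of this kind bounds the mean difference between LPS-treated and PBS-treated mice like these and does not show that a level stayed the same.

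**Figure D1:**
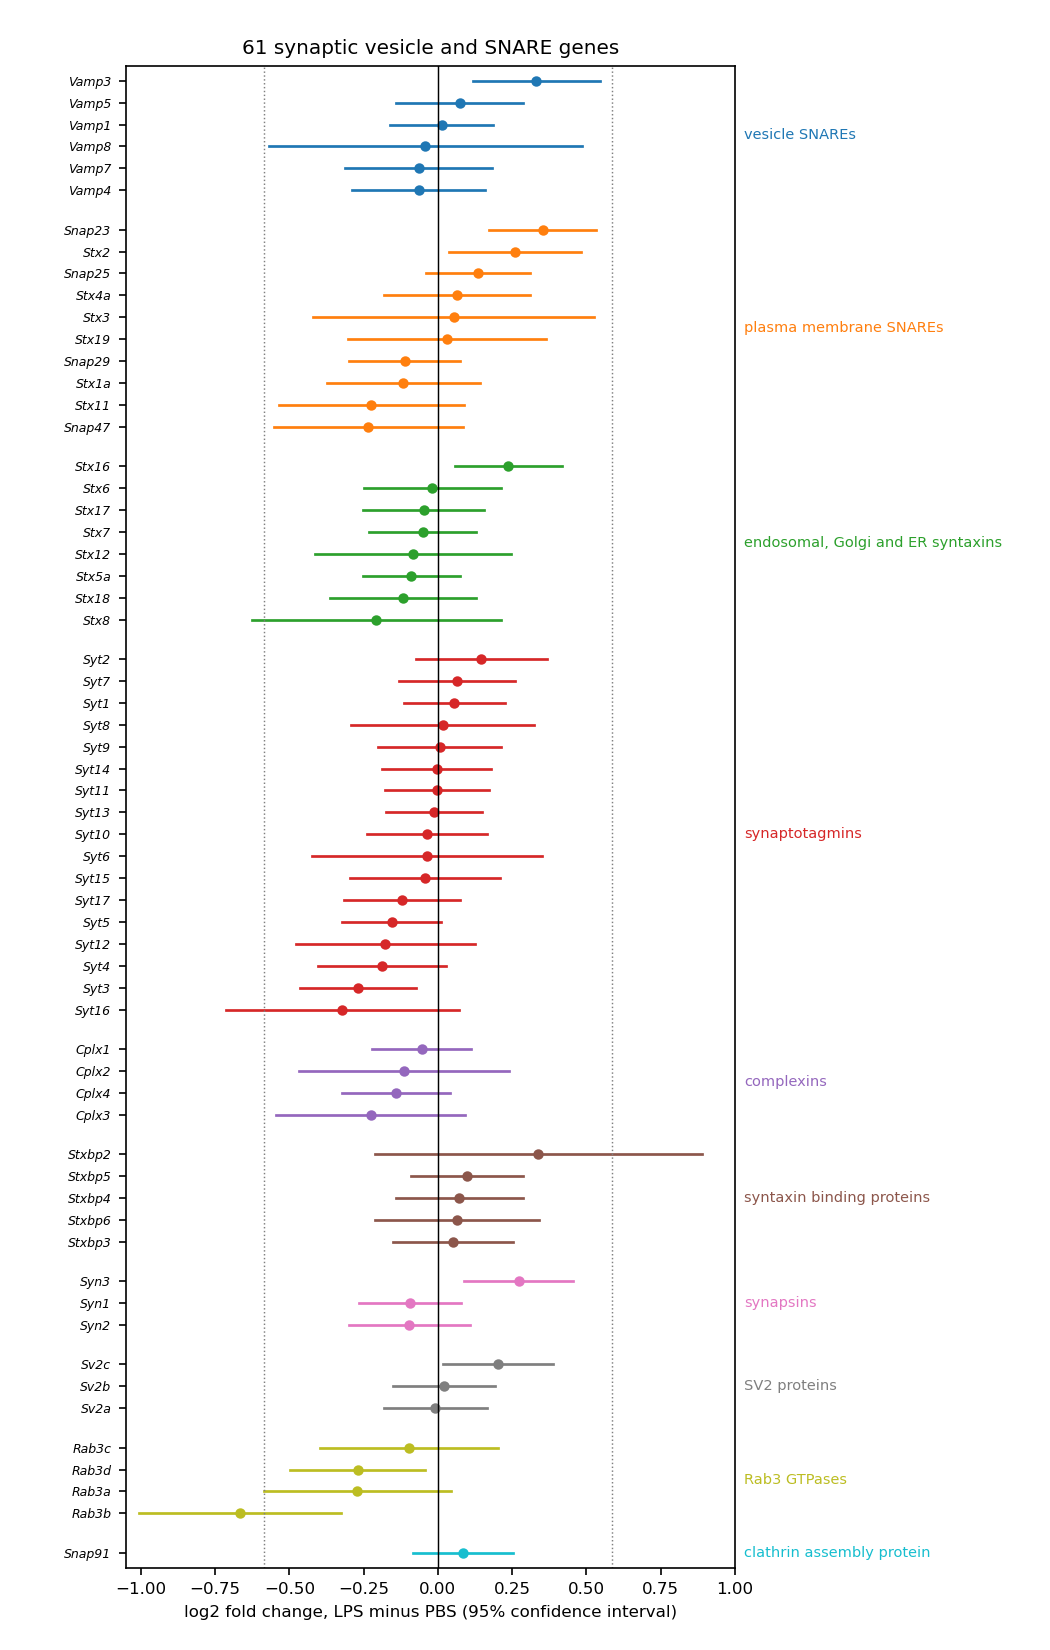
Log2 fold change, LPS minus PBS, for each of the 61 genes by family (3 arrays per group). Points are estimates, bars are 95% confidence intervals and dotted lines mark 1.5-fold, and the intervals of 56 genes stay inside these lines while Rab3b lies farthest from 0, at -0.67.

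Promoter sequences were taken from RefSeq for build GRCm38.p6, as the 250 bases before each annotated start, and 50 of the 61 members had at least 1 such window. Those of Rab3b and Snap23 are shown because they had the lowest adjusted p, in opposite directions. Rab3b lies on the forward strand with its window at chr4:108878820-108879069, and Snap23 on the forward strand with its window at chr2:120567421-120567670. Capitals mark the GC box GGGCGG, searched on both strands, of which the Rab3b window holds 4 matches, some overlapping, and the Snap23 window 0.
Rab3b: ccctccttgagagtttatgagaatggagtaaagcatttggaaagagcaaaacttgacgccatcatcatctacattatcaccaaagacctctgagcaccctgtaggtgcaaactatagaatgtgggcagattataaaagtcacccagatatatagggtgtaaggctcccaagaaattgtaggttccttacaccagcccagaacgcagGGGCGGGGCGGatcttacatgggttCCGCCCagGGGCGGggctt
Snap23: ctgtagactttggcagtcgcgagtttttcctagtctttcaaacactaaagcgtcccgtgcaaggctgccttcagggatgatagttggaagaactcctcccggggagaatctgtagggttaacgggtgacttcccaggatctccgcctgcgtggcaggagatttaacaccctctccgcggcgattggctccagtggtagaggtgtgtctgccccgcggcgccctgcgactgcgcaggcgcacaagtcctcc

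Snap25, Syt1, Vamp1 and Stx1a, genes of fast release, differed little between the groups, and none passed. Rab3a, of the same fast release set, had a larger estimate of -0.27 and is described with the Rab3 GTPases below. Snap25, the neuronal plasma membrane SNARE, read 13.58, 13.55 and 13.46 in the PBS arrays and 13.63, 13.71 and 13.65 in the LPS arrays. The LPS values lay above the PBS values by a narrow margin, with a log2 fold change of 0.14 (95% interval -0.039 to 0.31, adjusted p = 0.436 from limma). Syt1, the calcium sensor of fast release, read 13.13, 13.02 and 13.10 in the PBS arrays and 13.14, 13.16 and 13.12 in the LPS arrays. The groups overlapped, and the log2 fold change was 0.056, with an interval that runs from 0.923-fold to 1.17-fold (adjusted p = 0.754 from limma). Vamp1, a vesicle SNARE of neurons, read 11.68, 11.79 and 11.78 in the PBS arrays and 11.79, 11.73 and 11.77 in the LPS arrays. These 6 arrays spanned a narrow range, and the difference was 0.013 (adjusted p = 0.952 from limma). Stx1a, a syntaxin of neuronal terminals, read 9.02, 9.33 and 9.36 in the PBS arrays and 9.09, 9.13 and 9.13 in the LPS arrays. PBS replicate 1 was the lowest of its 6 arrays, and the difference was -0.12 (adjusted p = 0.649 from limma). Vamp2, whose cluster also names another gene, was not analysed here.

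Complexins, small proteins that clamp and then promote fusion, all had estimates below 0, under quantile normalization too, and none passed. With 1 array left out Cplx1, Cplx3 and Cplx4 stayed below 0, while Cplx2 was at 0.050 without PBS replicate 3. Cplx1 read 11.74, 11.72 and 11.73 in the PBS arrays and 11.69, 11.62 and 11.72 in the LPS arrays, with a log2 fold change of -0.054 (95% interval -0.22 to 0.11, adjusted p = 0.753 from limma). The groups overlapped in LPS replicate 3. Cplx2 spread more among the PBS arrays, from 9.90 to 10.46, and differed by -0.11 (adjusted p = 0.755 from limma). Cplx3 and Cplx4, best known from ribbon synapses of the retina, differed by -0.23 and -0.14 (adjusted p = 0.472 and 0.432 from limma). For Cplx4, which lies at the floor, all LPS arrays were below all PBS arrays.

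Among the synapsins the estimates pointed both ways. Syn3, which is prominent in developing neurons, read 9.87, 9.87 and 9.87 in the PBS arrays and 10.04, 10.20 and 10.18 in the LPS arrays. Its 3 PBS arrays were nearly identical and all LPS arrays lay above them, with a log2 fold change of 0.27 (95% interval 0.088 to 0.45, adjusted p = 0.228 from limma). Syn1 and Syn2, the major synapsins of mature terminals, overlapped between groups and differed by -0.093 (adjusted p = 0.583 from limma) and -0.10 (adjusted p = 0.634 from limma). Sv2c, the SV2 protein of basal ganglia and some other regions, read 10.22, 10.25 and 10.08 in the PBS arrays and 10.37, 10.42 and 10.38 in the LPS arrays, again with the groups apart, and differed by 0.20 (adjusted p = 0.320 from limma). Sv2a and Sv2b, the widespread forms, overlapped and differed by -0.0083 (adjusted p = 0.971 from limma) and 0.020 (adjusted p = 0.921 from limma). Their intervals ran from -0.18 to 0.16 and from -0.15 to 0.19. Snap91 is no SNARE in spite of its symbol but encodes the clathrin assembly protein AP180, which retrieves vesicle membrane. It read 11.89, 11.91 and 11.86 in the PBS arrays and 11.99, 12.02 and 11.91 in the LPS arrays, with the groups apart and a log2 fold change of 0.086 (95% interval -0.083 to 0.25, adjusted p = 0.607 from limma).

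The Rab3 GTPases had 4 estimates below 0 and a median log2 fold change of -0.27, and none of the 4 passed. Quantile normalization left all 4 below 0. With 1 array left out Rab3a, Rab3b and Rab3d stayed below 0, while Rab3c was at 0.017 without PBS replicate 3. Rab3b, whose promoter window is printed above, is concentrated in some neurons and in endocrine cells. It read 9.40, 9.56 and 9.54 in the PBS arrays and 8.75, 8.61 and 9.14 in the LPS arrays. All LPS arrays lay below all PBS arrays, LPS replicate 3 the least far, with a fold change of 0.630 (95% interval -1.01 to -0.33 on the log2 scale, adjusted p = 0.133 from limma). Rab3d, known from secretory granules of exocrine and mast cells, read 6.65, 6.84 and 6.88 in the PBS arrays and 6.61, 6.42 and 6.54 in the LPS arrays. The groups were apart by a small gap, and the difference was -0.27 (adjusted p = 0.296 from limma). Rab3a, the main Rab3 of synaptic vesicles, read 11.96, 12.14 and 12.20 in the PBS arrays and 11.82, 11.61 and 12.06 in the LPS arrays. LPS replicate 3 lay among the PBS arrays while LPS replicates 1 and 2 lay below them, and the difference was -0.27 (adjusted p = 0.400 from limma). Rab3c differed by -0.10 (adjusted p = 0.755 from limma) and overlapped.

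Of 17 synaptotagmins, 12 had estimates below 0 and 5 above, with a median of -0.037, and none passed. With median centring, which lowered every estimate alike, 16 were below 0, and with quantile normalization 11. Syt3, a sensor with high affinity for calcium, read 8.99, 9.01 and 8.98 in the PBS arrays and 8.66, 8.67 and 8.85 in the LPS arrays. The PBS arrays were tight and all LPS arrays lay below them, with a log2 fold change of -0.27 (95% interval -0.46 to -0.075, adjusted p = 0.250 from limma). Syt4 and Syt5, found on dense-core vesicles, also had all LPS arrays below all PBS arrays and differed by -0.19 (adjusted p = 0.394 from limma) and -0.16 (adjusted p = 0.371 from limma). For Syt4 the gap between the groups came down to LPS replicate 3, at 10.83 against a lowest PBS value of 10.85. Syt16, a form that lacks calcium binding, read 8.84, 8.75 and 9.01 in the PBS arrays and 8.43, 8.31 and 8.90 in the LPS arrays, with LPS replicate 3 inside the PBS range and the other two LPS arrays below it, and differed by -0.32 (adjusted p = 0.415 from limma). Syt2, a fast sensor of hindbrain and spinal synapses, differed by 0.15 (adjusted p = 0.504 from limma), and Syt7, a sensor of slower release, by 0.064 (adjusted p = 0.751 from limma). Syt9, another fast sensor, differed by 0.0055 (adjusted p = 0.985 from limma). Syt11, which does not sense calcium, differed by -0.0044 (adjusted p = 0.986 from limma). The remaining Syt6, Syt8, Syt10, Syt12, Syt13, Syt14, Syt15 and Syt17 overlapped between groups and ran from -0.18 for Syt12 to 0.016 for Syt8.

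Snap23, Vamp3 and Stx2, SNAREs that many cell types use, had estimates above 0 and missed the threshold. Snap23, the counterpart of Snap25 in most tissues, read 9.61, 9.56 and 9.66 in the PBS arrays and 9.91, 10.04 and 9.94 in the LPS arrays. The groups were apart, and the fold change was 1.28 (95% interval 0.17 to 0.53 on the log2 scale, adjusted p = 0.133 from limma). Vamp3, or cellubrevin, the vesicle SNARE of recycling endosomes, read 8.79, 8.89 and 8.65 in the PBS arrays and 9.02, 9.15 and 9.14 in the LPS arrays. All LPS arrays lay above all PBS arrays, and the fold change was 1.26 (95% interval 0.12 to 0.54 on the log2 scale, adjusted p = 0.212 from limma). Stx2, or epimorphin, a syntaxin of epithelial and other cells, read 7.57, 7.32 and 7.43 in the PBS arrays and 7.63, 7.79 and 7.68 in the LPS arrays, with the groups apart and a difference of 0.26 (adjusted p = 0.302 from limma).

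Other SNAREs known from secretion outside neurons, Vamp8, Stx4a and Stx11 among them, had estimates on both sides of 0, and none passed. Stx11, a syntaxin of cytotoxic lymphocytes and macrophages, read 6.29, 6.43 and 6.50 in the PBS arrays and 6.45, 6.02 and 6.08 in the LPS arrays, so that the groups overlapped, and differed by -0.22 (adjusted p = 0.467 from limma). Stxbp2, the Munc18 protein that pairs with it, read 8.84, 8.56 and 8.51 in the PBS arrays and 9.11, 9.36 and 8.45 in the LPS arrays. LPS replicates 1 and 2 were above the PBS arrays and LPS replicate 3 was below all of them, and the difference was 0.34 (adjusted p = 0.534 from limma). Stx3 and Stx4a, plasma membrane syntaxins of polarized and of many other cells, differed by 0.052 (adjusted p = 0.927 from limma) and 0.066 (adjusted p = 0.801 from limma). In Stx3 too LPS replicate 3 was the lowest of the 6 arrays, with LPS values of 8.53, 8.72 and 8.06. Vamp8, or endobrevin, spread from 7.12 to 7.98 within the LPS arrays alone and differed by -0.042 (adjusted p = 0.949 from limma). Vamp5 and Vamp7 differed by 0.073 (adjusted p = 0.740 from limma) and -0.065 (adjusted p = 0.805 from limma). Snap29 and Snap47, the remaining SNAP proteins, differed by -0.11 (adjusted p = 0.540 from limma) and -0.23 (adjusted p = 0.458 from limma), and Stx19 by 0.031 (adjusted p = 0.939 from limma). For Snap29 all LPS arrays lay below all PBS arrays by a narrow margin.

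Among the marker lists of other cell types, that of endothelial cells moved most in the same arrays. Of 6 endothelial markers, 5 were higher by limma and none was lower, with a median log2 fold change of 0.96 and a mean level of 7.46 to 7.60 in the PBS arrays and 8.39 to 8.55 in the LPS arrays. Of 7 markers of microglia and macrophages, 1 was higher and none was lower, with a median of 0.30. Their mean level was 7.85 to 8.05 in the PBS arrays and 8.26 to 8.55 in the LPS arrays. At an unadjusted p below 0.05 by limma, 4 of these 7 were higher and 0 lower, against 7.69% and 6.58% of all clusters. Of 6 neutrophil markers 1 was higher and none was lower, with a mean level of 5.74 to 5.87 in the PBS arrays and 5.89 to 5.96 in the LPS arrays, and 4 lay below the floor in the PBS mice, as did 5 of 8 T and NK cell markers. None of these 8 passed limma, with 2 higher at an unadjusted p below 0.05. None of 6 astrocyte and 5 oligodendrocyte markers passed either, with 1 higher among the former and 2 lower among the latter at that level. The part of these cells in the estimates of Snap23, Vamp3 and Stx2 was not tested.

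**Figure D2:**
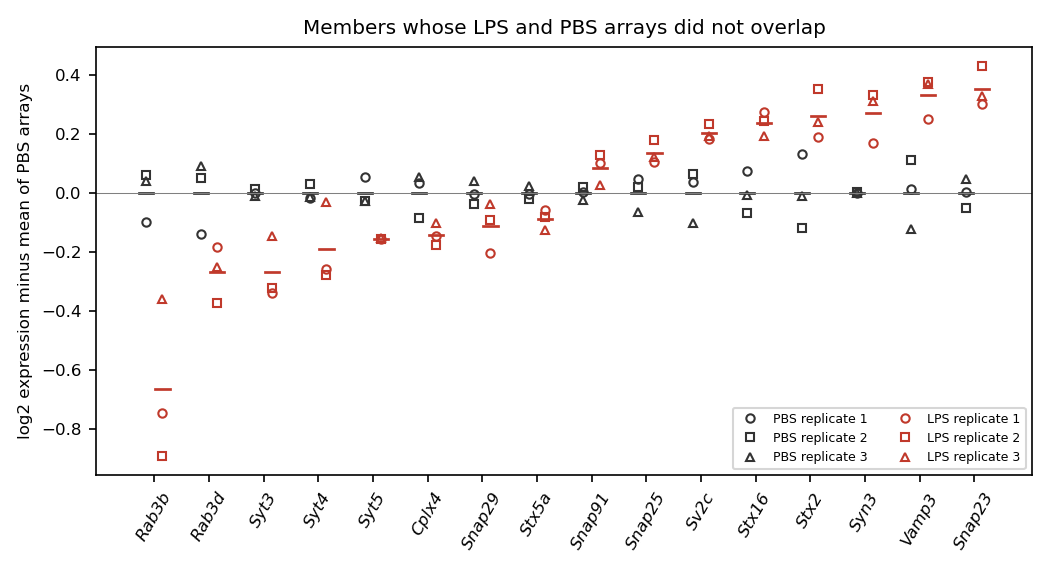
Log2 expression relative to the PBS mean for the 16 members whose LPS and PBS arrays did not overlap. Each symbol is 1 mouse (dark for PBS, red for LPS, shape for the replicate number) and bars are group means, and LPS replicate 3 is the LPS array nearest to the PBS mean for 8 of the 16 (Cplx4, Rab3b, Snap29, Snap91, Stx16, Syt3, Syt4 and, by a negligible margin, Syt5) and LPS replicate 1 for the other 8.

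Syntaxins of endosomes, the Golgi and the endoplasmic reticulum numbered 8, of which 7 had estimates below 0, also with quantile normalization. The exception was Stx16, a syntaxin of the trans-Golgi network, which read 8.48, 8.34 and 8.40 in the PBS arrays and 8.68, 8.65 and 8.60 in the LPS arrays. All LPS arrays lay above all PBS arrays, with a log2 fold change of 0.24 (95% interval 0.056 to 0.42, adjusted p = 0.268 from limma). Stx5a, which serves transport between the endoplasmic reticulum and the Golgi, had its LPS arrays below its PBS arrays and differed by -0.089 (adjusted p = 0.578 from limma). Stx7, of late endosomes, differed by -0.051 (adjusted p = 0.789 from limma), and Stx8, its partner there, by -0.21 (adjusted p = 0.618 from limma) with PBS arrays from 9.0 to 9.7. Stx6, Stx12, Stx17 and Stx18 overlapped and ran from -0.12 for Stx18 to -0.019 for Stx6. With 1 array left out, Stx6, Stx12 and Stx17 reached estimates of up to 0.046, 0.019 and 0.011. Those of Stx5a, Stx7, Stx8 and Stx18 stayed below 0. Vamp4, a vesicle SNARE of the same compartments, differed by -0.065 (adjusted p = 0.782 from limma). The remaining syntaxin binding proteins Stxbp3, Stxbp4, Stxbp5 and Stxbp6 overlapped between groups and ran from 0.050 for Stxbp3 to 0.10 for Stxbp5, which encodes tomosyn, a decoy SNARE that restrains release. The dimmer cluster of Stxbp4 differed by 0.16 (adjusted p = 0.588 from limma), in the same direction as its brighter cluster at 0.073.

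No member was called when any 1 PBS array, LPS replicate 1 or LPS replicate 2 was left out, whereas calls appeared without LPS replicate 3. Without that array 2 members were higher and 3 lower, or 3.28% and 4.92%, where 7.42% and 3.24% of all clusters were called. Snap23 then differed by 0.37 (adjusted p = 0.0439 from limma) and Stxbp2 by 0.60 (adjusted p = 0.0398 from limma). Rab3b differed by -0.82 (adjusted p = 0.00794 from limma), Syt16 by -0.50 (adjusted p = 0.0347 from limma) and Syt3 by -0.33 (adjusted p = 0.0405 from limma). With both LPS replicates 1 and 2 removed, and the 1 LPS array assumed to vary like the PBS arrays, no member was called, and the estimates of these 5 genes took different courses. Snap23 stayed near its estimate from all arrays, at 0.33, and Rab3b and Syt3 lay nearer to 0, at -0.36 and -0.15. Stxbp2 and Syt16 changed sign, to -0.19 and 0.036. The mean of LPS replicates 1 and 2 differed from LPS replicate 3 by 0.79 for Stxbp2, -0.54 for Syt16 and -0.46 for Rab3b, against 0.038 for Snap23 and a median of -0.070 over the members.

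Weighting the arrays also changed the calls. limma then gave LPS replicate 1 a weight of 8.69 and the other arrays weights of 0.253 to 1.20, so that the LPS mean rested mostly on 1 mouse. With these weights 4 members were higher and 8 lower, together 19.7%, and 23.4% of all clusters were called, of which 4751 were higher and 3572 lower. The 4 were Snap23, Stx16, Stxbp2 and Vamp3, with log2 fold changes from 0.26 to 0.45. The 8 were Rab3b, Syt16, Cplx3, Syt3, Snap47, Syt4, Syt17 and Snap29, from -0.73 to -0.19.

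**Figure D3:**
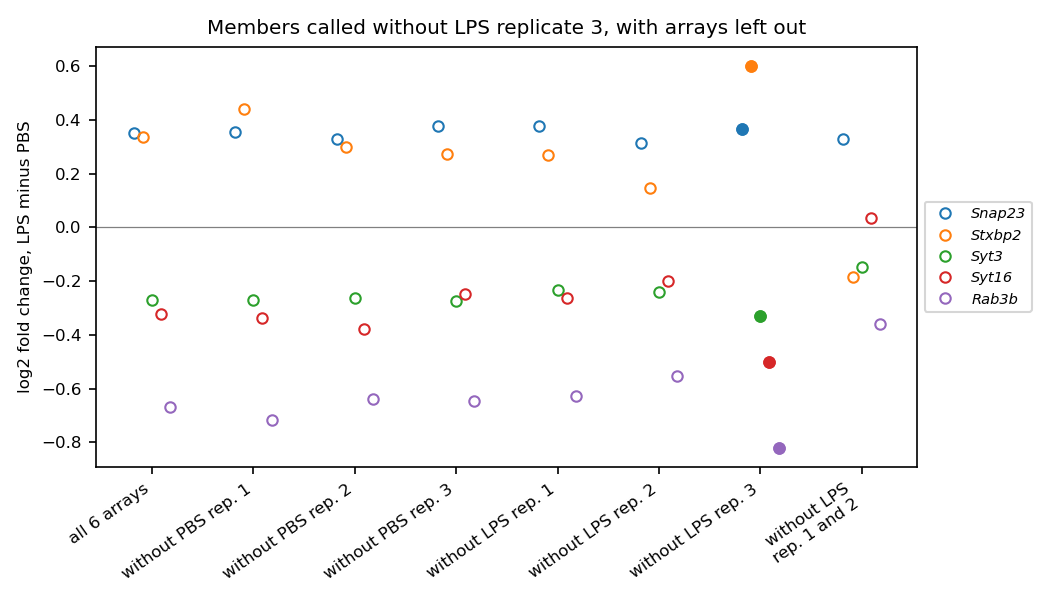
Log2 fold change, LPS minus PBS, of the 5 members that were called without LPS replicate 3, with all 6 arrays and with arrays left out. Filled symbols mark an adjusted p under 0.05, which was reached only without LPS replicate 3, and Stxbp2 and Syt16 cross 0 when LPS replicates 1 and 2 are both left out.

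The GC box occurs in the 250-base windows of 35 of 50 members, or 70%, and of 35.4% of 27025 genes with a window, and the median GC content was 62.6% over the members and 52.4% over all genes. The core of the interferon-stimulated response element, spelled as GAAA on either side of any 2 bases and searched on both strands, was found in 3 of 50 members, or 6%, and in 3.46% of all genes. The gamma-activated site TTCNNNGAA was found in 3 of 50 members and in 8.13% of all genes, and the cyclic AMP response element TGACGTCA in 2 members and in 1.77% of all genes. The 3 stretches with the interferon motif are shown, with the motif in capitals, because this element serves the interferon response that LPS can set off. They lie at chr7:75302793-75302822 on the reverse strand for Sv2b, at chr3:103575032-103575061 on the forward strand for Syt6 and at chr6:125215421-125215450 on the forward strand for Vamp1.
Sv2b: aacaaggctgGAAAGAGAAAcacgtggaaa
Syt6: cctcgtttacGAAATGGAAAactgagtccc
Vamp1: ggtcagtgaaGAAATAGAAAtaagaggaca

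None of these 3 genes passed the test. Sv2b read 12.32, 12.21 and 12.32 in the PBS arrays and 12.30, 12.31 and 12.30 in the LPS arrays, and Syt6 differed by -0.038 (adjusted p = 0.936 from limma). The 6 values of Vamp1 are given above. A match of letters is a description of the sequence and is neither a binding site nor a cause.

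Other genes of exocytosis were read from 6 further lists. By limma 1 of their 100 measured genes was higher and 0 were lower, where 0.714% of all clusters were called in either direction. At an unadjusted p below 0.05 there were 4 higher and 7 lower, where 7.69% and 6.58% of all clusters were, and the median log2 fold change was -0.023. The higher gene was Esyt1, an extended synaptotagmin that tethers the endoplasmic reticulum to the plasma membrane. It read 8.17, 8.26 and 8.10 in the PBS arrays and 8.70, 8.71 and 8.77 in the LPS arrays, with the groups apart and a difference of 0.55 (adjusted p = 0.0357 from limma). Its list of synaptotagmin-like and Rab27 genes had 11 measured members and a median of -0.010, and Rab27a, a GTPase of secretory granules in leukocytes and pigment cells, differed by 0.44 (adjusted p = 0.133 from limma). The call of Esyt1 was lost when any 1 PBS array, LPS replicate 1 or LPS replicate 2 was left out, and with the methods' t-test, an intensity trend, the replicate block, quantile normalization or median centring, since 0 of the 100 genes were then higher.

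None of the 22 active zone genes passed limma, with 1 higher and 1 lower at an unadjusted p under 0.05. Doc2a, a calcium sensor of spontaneous and delayed release, read 9.08, 8.97 and 9.06 in the PBS arrays and 8.30, 8.43 and 8.78 in the LPS arrays, with all LPS arrays below all PBS arrays and a difference of -0.53 (adjusted p = 0.180 from limma). None of 17 vesicle membrane proteins and transporters passed, with 4 lower at an unadjusted p under 0.05, where 6.58% of all clusters were lower. These were Syngr3, Slc32a1, Slc18a3 and Sncb. Slc32a1, the vesicular transporter of GABA, differed by -0.21 (adjusted p = 0.330 from limma) and Slc18a3, that of acetylcholine, by -0.37 (adjusted p = 0.191 from limma). Syngr3, a synaptogyrin of synaptic vesicles, read 10.55, 10.56 and 10.56 in the PBS arrays and 10.32, 10.20 and 10.11 in the LPS arrays and differed by -0.35 (adjusted p = 0.160 from limma), and Sncb, beta-synuclein, by -0.20 (adjusted p = 0.332 from limma). None of 10 genes of SNARE disassembly, 23 of vesicle endocytosis and 17 of other SNAREs and SM proteins passed, with medians of -0.052, -0.012 and -0.090. At an unadjusted p under 0.05, 0 genes differed in the first of these, Cltb and Ap2s1 were lower in the second, and Vti1a was higher in the third, at 0.43 (adjusted p = 0.180 from limma).

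**Figure D4:**
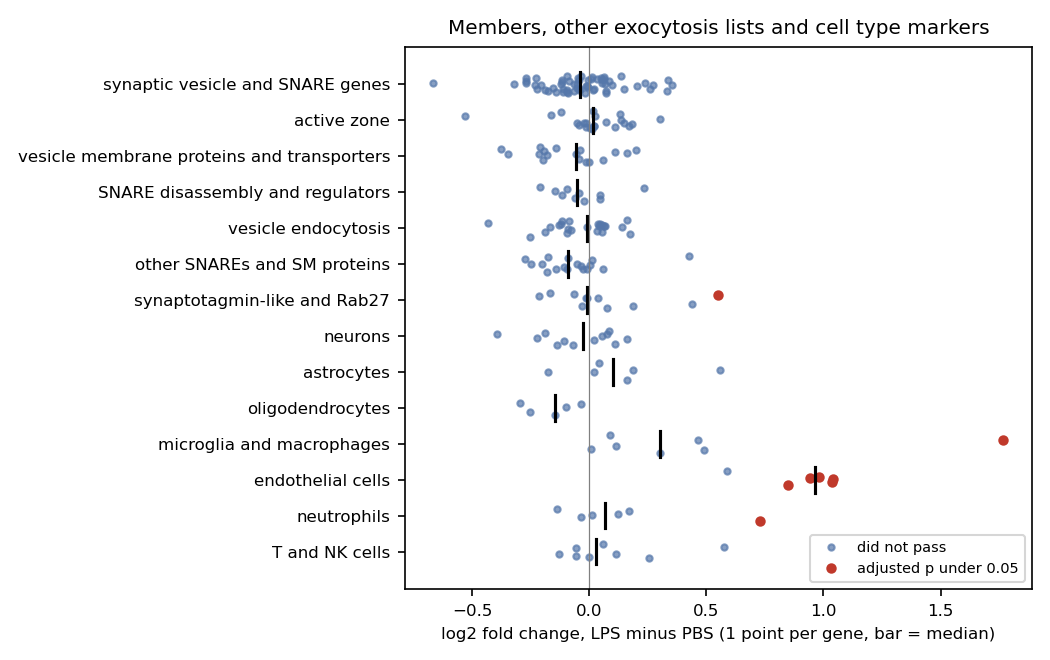
Log2 fold change, LPS minus PBS, for the 61 members, 6 other exocytosis lists and 7 lists of cell type markers, with 1 point per gene and a bar at the median. Red points passed the test at an adjusted p under 0.05, which includes 5 of 6 endothelial markers, Esyt1 among the exocytosis genes and none of the members.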

How the data were processed

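Whole brain RNA of 3 PBS-treated and 3 LPS-treated mice was hybridized to Affymetrix GeneChip Mouse Gene 1.0 ST arrays, 1 per mouse. The deposited values are log2 expression, and the labels do not name the normalization. They were taken as the authors' RMA values adjusted for GC content. Fold changes of Cldn5 and Cdh5, at 1.98 and 1.80, equalled those the authors list for that normalization. Titles assigned groups. Clusters were named from GEO's platform annotation, and a cluster naming several genes or none was tested unnamed. LPS was compared with PBS in R 4.3.3 with the lmFit and eBayes functions (limma 3.58.1) over 35556 clusters, two-sided, with Benjamini-Hochberg adjustment and a threshold of 0.05. The authors applied analysis of variance to the GC-adjusted values and an unpaired t test to values of a second RMA normalization. That kind of t test, run here on the deposited values, is named the methods' t-test. An exact permutation of 3 against 3 mice cannot give a p below 0.1, and precision is limited by how few arrays there are. Probes differ in brightness, so levels of different genes were not ranked. Members, gene lists and motifs were chosen with earlier results of these data known. Genes named were the fast release set, SNAREs of other cells, the 10 largest changes each way, and the lowest and highest of each family. Other members are named to account for all 61. Alternatives were the methods' t-test, trend, robust and array-weighted fits, quantile normalization, median centring, leaving out the dimmest 40% of clusters, the replicate number as a block, only clusters that name 1 gene, an adjusted threshold of 0.1, an offset of 32, each array left out and the mean of a gene's clusters. Leaving out LPS replicates 1 and 2 together was added after the data were seen. The fit was tested on simulated data.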

Additional observations from a re-analysis of the deposited data

How the results depend on the processing

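Members called higher and lower numbered 0 and 0 under all alternatives except array weights, with 4 and 8, and without LPS replicate 3, with 2 and 3, so that leaving out 1 array in turn gave 0 to 2 higher and 0 to 3 lower. Their median log2 fold change was -0.071 to 0.0040 with 1 array left out, -0.13 with median centring, where that of all clusters was -0.092, and 0.016 with LPS replicates 1 and 2 both left out. Of the other exocytosis genes, 1 was higher, and 0 were with the methods' t-test, trend, quantile normalization, median centring, the replicate block or LPS replicates 1 and 2 both left out, 9 with array weights, with 11 lower, and 0 to 2 with 1 array left out, with 0 to 3 lower. Over the whole array 232 clusters were higher and 22 lower. The higher numbered 4 with the methods' t-test, 4751 with array weights, 141 with median centring, 76 with the replicate block, 356 at an adjusted p under 0.1, 71 with LPS replicates 1 and 2 both left out, and 74 to 2640 with 1 array left out. The lower numbered 1, 3572, 10, 4, 64, 12 and 0 to 1152 in the same order, 13 with quantile normalization and 61 among clusters that name 1 gene. The cause of these shifts was not tested. Among clusters that name 1 gene the lowest adjusted p of a member came close to the threshold, at 0.0516 from limma for Rab3b. With the offset of 32 it was 0.0862 from limma, for Snap23. With the replicate block no member was called (lowest adjusted p = 0.187 from limma). Same-numbered arrays had correlations of deviations of 0.0867, -0.0538 and 0.0997 over all clusters. Those of differently numbered arrays ran from -0.166 to 0.146. With so few arrays these values cannot settle whether replicate numbers paired the samples, and the main fit used no pairing.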
